A study of Mus musculus with 24 samples.

Results

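The 6 genes described here encode the slow and fast skeletal isoforms of the 3 troponin subunits: troponin C (slow Tnnc1, fast Tnnc2), troponin I (slow Tnni1, fast Tnni2) and troponin T (slow Tnnt1, fast Tnnt3). They were taken by symbol from a table of 47643 mouse genes, and all 6 were among the 10159 genes that passed the expression filter. The samples were plantaris muscles, a fast hindlimb muscle, of wild type C57BL/6 mice, 11 from animals kept in normal air and 13 from animals exposed to tobacco smoke for 16 weeks. Age and sex were not given in the sources used here, and nothing in the labels says that each sample is a different animal, so p-values measure the spread between these samples. RNA was read from the 3′ ends of transcripts, so a count is not scaled by transcript length.

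Troponin is the calcium switch of the thin filament in striated muscle. Troponin C binds calcium, troponin I holds actin and myosin apart at rest, and troponin T ties the complex to tropomyosin. Each subunit has a gene used mainly in slow, oxidative fibres and another used mainly in fast fibres, and slow troponin C is also the troponin C of the heart. The isoform mix is commonly used as a marker of fibre type, and the plantaris of the mouse is made almost wholly of fast fibres.

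Total counts ranged from 2868808 to 4060568 in air and from 2515697 to 4528845 in smoke. Summed levels of 5 fast muscle markers (Myh4, Acta1, Ckm, Pvalb and Actn3) lay between 115200 and 186800 CPM (counts scaled to a common library total, by the TMM method) in air and between 122200 and 155900 CPM in smoke. The 5 heart markers (Nppa, Myh6, Tnni3, Tnnt2 and Myl7) together reached at most 7.27 CPM in any sample, and none of the 5 passed the expression filter. Of all tested genes, 195 (1.92%) were called, 74 (0.728%) higher and 121 (1.19%) lower under smoke; called means an adjusted p under 0.05 in the edgeR quasi-likelihood test, with Benjamini-Hochberg adjustment over all tested genes.

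None of the 6 troponin genes differed between smoke and air by that test, against 1.92% of all genes (0.728% higher, 1.19% lower), and none had an unadjusted p under 0.05, against 15.5% of all genes. The fast genes were among the most abundant transcripts and varied little. The slow genes had far fewer reads than the fast genes of the same subunit, and differed several-fold from sample to sample within each group. Slow members varied together across samples, and the gene that followed them most closely was Myh7, the slow myosin heavy chain.

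The 3 fast genes together made up 9.68% to 11.9% of a sample's counts in air (median 10.4%) and 9.48% to 10.9% in smoke (median 10.0%). Tnnc2 was the gene with the second highest mean level in the muscle, Tnni2 the fifth and Tnnt3 the fifteenth. In all 24 samples the CPM level was ordered Tnnc2, Tnni2, Tnnt3, Tnnt1, with Tnnt1 above Tnnc1 and Tnni1. Tnnc1 and Tnni1 had no fixed order: Tnnc1 was the higher in 12 of 24 samples, Tnni1 in 8, and both were equal in 4. Reads per transcript can differ between 3′ ends, so this order describes reads rather than molecules.

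Tnnc2, the calcium sensor of fast fibres, ranged from 50681 to 77146 CPM in air (median 56130) and from 50106 to 63297 CPM in smoke (median 56421). The groups overlapped almost fully, and the highest value was that of air sample 11. The log2 fold change, smoke against air, was -0.04 (SE 0.055, 95% interval -0.16 to 0.07, edgeR adjusted p = 0.761). Tnni2, the inhibitory subunit of fast fibres, lay at 34034 to 52278 CPM in air (median 40461) and 33719 to 46736 CPM in smoke (median 38663). Its log2 fold change was -0.05 (SE 0.059, 95% interval -0.18 to 0.07, edgeR adjusted p = 0.722), and air sample 11 was again the highest. Tnnt3, the tropomyosin-binding subunit of fast fibres, lay at 6832 to 9972 CPM in air (median 7802) and 6726 to 8327 CPM in smoke (median 7488). It had the smallest p of the 6, with a log2 fold change of -0.10 (SE 0.055, 95% interval -0.21 to 0.02, edgeR adjusted p = 0.424), and 11 of 13 smoke samples were lower than the mean of air.

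Taken gene by gene, the intervals of the fast genes all lay between 0.865-fold (lower limit of Tnnt3) and 1.05-fold (upper limit of Tnnc2), smoke against air. They describe a difference between groups after scaling, and a separate effect of smoke was not tested. No fast gene had fewer than 18686 reads in a sample. Without air sample 11 the log2 fold change of Tnnc2 was 0.0017, that of Tnni2 -0.01 and that of Tnnt3 -0.06.

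**Figure D1:**
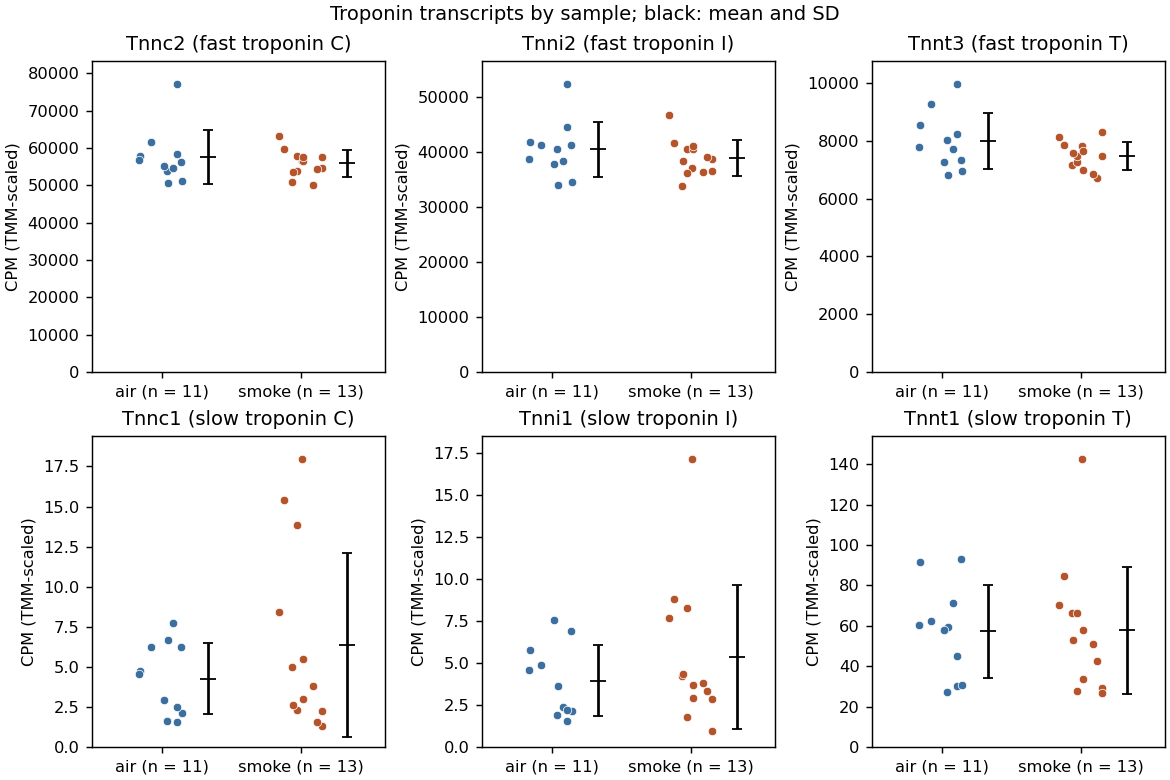
CPM of each troponin gene (y axis, linear, from 0) in 11 air and 13 smoke samples, fast genes above and slow genes below; each point is a sample and the black bars give mean and SD. Fast genes form tight groups, while slow genes spread several-fold in both groups and smoke sample 1 is the highest for Tnnc1, Tnni1 and Tnnt1.

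Tnnc1, slow troponin C, was counted with 6 to 24 reads per sample in air and 4 to 64 in smoke. Its level was 1.54 to 7.72 CPM in air (median 4.58) and 1.28 to 18.0 CPM in smoke (median 3.82). Smoke samples 1, 3 and 6 stood highest, at 18.0, 15.4 and 13.9 CPM, and 4 of 13 smoke samples were above the whole air range while 1 was below it. The log2 fold change was 0.59 (SE 0.37, 95% interval -0.18 to 1.36, edgeR adjusted p = 0.477), with 6 of 13 smoke samples above the air mean. Without smoke sample 1 it was 0.34.

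Tnni1, slow troponin I, gave 6 to 31 reads per sample in air and 3 to 61 in smoke. Its level was 1.54 to 7.53 CPM in air (median 3.61) and 0.956 to 17.1 CPM in smoke (median 3.82). The same 3 smoke samples led, at 17.1, 8.81 and 8.25 CPM, followed by smoke sample 10 at 7.69 CPM. The log2 fold change was 0.43 (SE 0.33, 95% interval -0.24 to 1.11, edgeR adjusted p = 0.568), with 6 of 13 smoke samples above the air mean, and it was 0.13 without smoke sample 1.

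Tnnt1, slow troponin T, was the best counted slow member, with 99 to 367 reads per sample in air and 84 to 508 in smoke. Its level was 27.2 to 93.0 CPM in air (median 59.4) and 26.8 to 142 CPM in smoke (median 53.1). Smoke sample 1 was the highest at 142 CPM, and 12 of 13 smoke samples lay at or under the highest air value. The log2 fold change was 0.02 (SE 0.22, 95% interval -0.45 to 0.48, edgeR adjusted p = 0.986), and it was -0.18 without smoke sample 1. On the high side the interval reaches 1.39-fold for Tnnt1, 2.16-fold for Tnni1 and 2.57-fold for Tnnc1. With limma voom in place of edgeR, the log2 fold change of Tnnc1 was 0.26, that of Tnni1 0.26 and that of Tnnt1 -0.038.

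The slow genes lay above the trend of variation that edgeR fitted for genes of like abundance. The biological coefficient of variation estimated by edgeR, which leaves out counting error, was 57.2% for Tnnc1, 49.2% for Tnni1 and 37.0% for Tnnt1. These lie at percentiles 99.9, 99.7 and 99.0 of all tested genes, where the trend values at their abundance were 21.7%, 22.2% and 12.7%. Tnnc2, Tnni2 and Tnnt3 had 9.99%, 10.6% and 10.0%, at percentiles 13.3, 18.4 and 13.7. Over all 24 samples the highest level was 17.9 times the lowest for Tnni1, 14.1 times for Tnnc1 and 5.32 times for Tnnt1, against 1.54 times for Tnnc2 and 1.48 times for Tnnt3. Variation was wide in air alone as well, at 5.00 times for Tnnc1, 4.87 times for Tnni1 and 3.42 times for Tnnt1. These ranges include counting error, since the lowest levels rest on 3 reads for Tnni1 and 4 for Tnnc1, and in air on 6 for each.

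**Figure D2:**
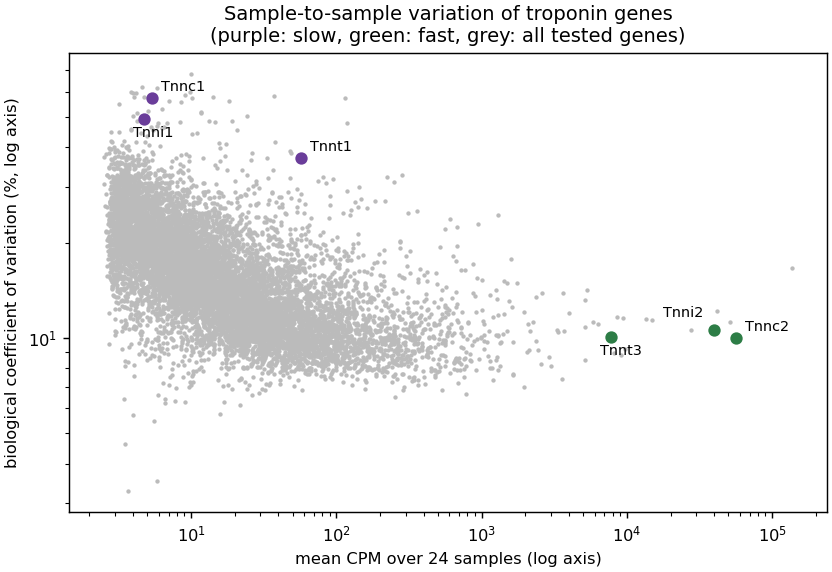
Biological coefficient of variation in percent (y axis, log) against mean CPM over 24 samples (x axis, log) for 10159 tested genes in grey, slow troponins in purple and fast troponins in green. The slow genes lie at the upper edge of genes with like abundance (57.2%, 49.2% and 37.0%), and the fast genes lie at about 10%.

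For each subunit, the slow share is the number of slow reads as a percentage of slow and fast reads of that subunit. Slow troponin C made up 0.00264% to 0.0141% of troponin C reads in air (median 0.00804%) and 0.00222% to 0.0317% in smoke (median 0.00762%). The slow share of troponin I was 0.00347% to 0.01997% in air (median 0.0106%) and 0.00247% to 0.0461% in smoke (median 0.0105%). That of troponin T was far larger, at 0.338% to 1.25% in air (median 0.767%) and 0.347% to 1.79% in smoke (median 0.736%). The lowest troponin T share of any sample was above the highest troponin C or troponin I share.

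In smoke sample 1, which had the highest slow share for every subunit, slow reads were 64 of troponin C (0.0317%, exact 95% binomial interval 0.0244% to 0.0405%), 61 of troponin I (0.0461%, interval 0.0353% to 0.0592%) and 508 of troponin T (1.79%, interval 1.64% to 1.95%). In air sample 7, which had the lowest troponin T share, they were 6, 7 and 99. These intervals cover counting error only, since reads carry no stated molecular identifier.

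The log2 ratio of slow to fast reads was then compared between groups, a measure in which the scaling of libraries cancels. For troponin C it averaged -13.68 ± 0.76 in the 11 air samples and -13.39 ± 1.10 in the 13 smoke samples (± SD). The difference of 0.30 (SE 0.38, 95% interval -0.52 to 1.12) did not pass a two-sided permutation test (p = 0.458, Benjamini-Hochberg adjusted p = 0.687 over 3 subunits), with 7 of 13 smoke samples above the air mean. For troponin I the means were -13.26 ± 0.74 and -12.96 ± 0.93, a difference of 0.31 (SE 0.34, 95% interval -0.41 to 1.03, permutation p = 0.385, adjusted p = 0.687), with 8 of 13 above. For troponin T they were -7.22 ± 0.64 and -7.16 ± 0.70, a difference of 0.05 (SE 0.27, 95% interval -0.52 to 0.62, permutation p = 0.854, adjusted p = 0.854), with 8 of 13 above. Taken as differences of medians the sign turned for all 3, at -0.05, -0.02 and -0.06 (permutation adjusted p = 0.999 for each).

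**Figure D3:**
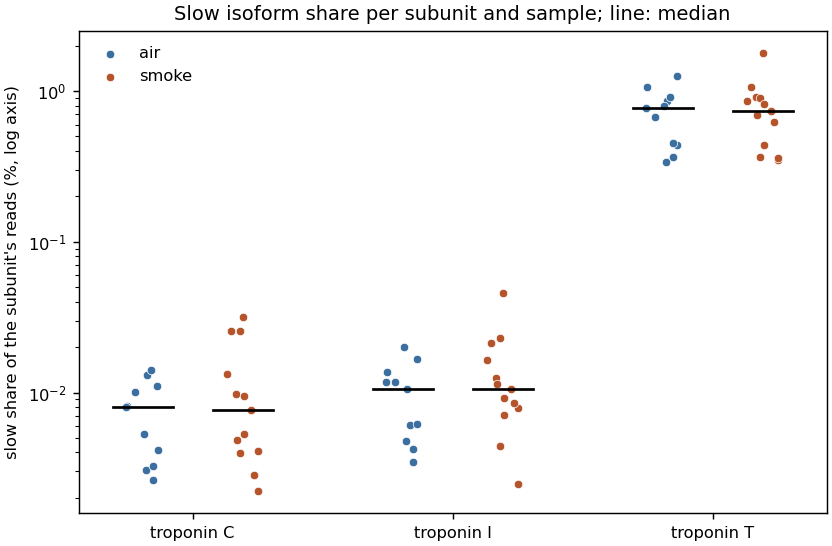
Slow isoform share of each subunit's reads in percent (y axis, log) for troponin C, I and T; points are 11 air and 13 smoke samples, and lines are group medians. Medians of air and smoke lie side by side within each subunit, and troponin T shares (0.338% to 1.79%) lie above all troponin C and I shares.

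Across samples the slow to fast ratios of the subunits were positively correlated in all 6 relations, of which 5 passed the test; differences between the relations were not tested. In smoke (n = 13), the slow to fast ratio of troponin C correlated with that of troponin I at Pearson's r 0.82 (permutation adjusted p = 0.00064) and Spearman's rho 0.83 (adjusted p = 0.00152). Troponin C with troponin T gave r 0.87 (permutation adjusted p = 0.00036) and rho 0.92 (adjusted p = 0.00012), and troponin I with troponin T gave r 0.88 (permutation adjusted p = 0.00036) and rho 0.85 (adjusted p = 0.00114). Adjustment was over 6 relations, 3 in each group. The raw permutation p of r in smoke was 0.00032, 0.00012 and 7.00e-05 in that order.

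In air (n = 11), troponin C with troponin T gave r 0.86 (permutation p = 0.00148, adjusted p = 0.00222) and rho 0.80 (adjusted p = 0.00672). Troponin I with troponin T gave r 0.80 (permutation p = 0.00403, adjusted p = 0.00484) and rho 0.69 (adjusted p = 0.0276). Troponin C with troponin I narrowly missed the threshold, at r 0.61 (permutation p = 0.0501, adjusted p = 0.0501) and rho 0.49 (adjusted p = 0.128), and passed it with a prior count of 0.5 (r 0.62, permutation adjusted p = 0.0448). After removal of the 2 samples lying farthest from the median ratio of the subunit named first, the 3 relations in smoke had r 0.68, 0.83 and 0.76 (permutation adjusted p from 0.0099 to 0.0313). In air, C with T and I with T kept r 0.79 and 0.71 (adjusted p = 0.022 and 0.0407), and C with I had 0.30 (adjusted p = 0.424). Removal of the samples farthest out narrows the range, and r was lower after it in all 6 relations. Troponin T ratios left a gap in each group, with 4 air samples at or under -7.77 and 7 at or above -7.20. In smoke, 4 samples were at or under -7.80 and 9 at or above -7.29. A wider gap in smoke lay between sample 3 at -6.52 and sample 1 at -5.77. Whether the samples fall into classes was not tested.

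**Figure D4:**
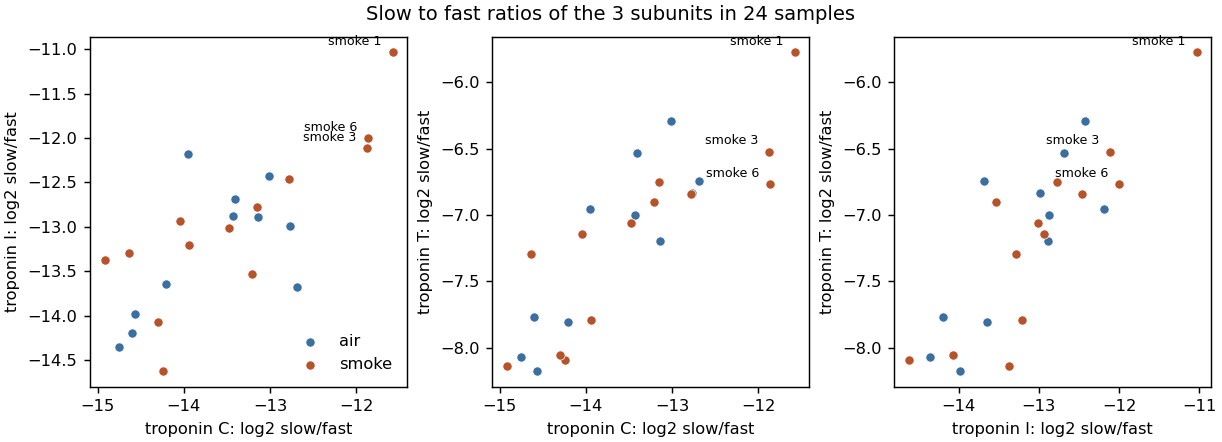
Log2 ratio of slow to fast reads for each pair of subunits, on both axes, in 11 air samples and 13 smoke samples, with smoke samples 1, 3 and 6 named. Samples with a high slow ratio for a subunit have a high ratio for the others, with r from 0.61 to 0.88 within groups.

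As log2 CPM levels after subtraction of group means (24 samples, all values from the same libraries), slow members correlated with each other at r 0.75 for Tnnc1 and Tnni1, 0.86 for Tnnc1 and Tnnt1, and 0.86 for Tnni1 and Tnnt1. Fast members did so at 0.89 for Tnnc2 and Tnni2, 0.83 for Tnnc2 and Tnnt3, and 0.69 for Tnni2 and Tnnt3. Between a slow and a fast member r was between -0.07 and 0.06. The mean level of the fast members followed the TMM factor of the library (r -0.86) and the share of reads from mitochondrial genes (r -0.70), and the part of these in the fast relations was not tested. For the slow members the values were -0.06 with the TMM factor, -0.07 with the mitochondrial share and -0.24 with the log2 total count. Smoke sample 1 had the highest share of reads from Gm42418, a gene that overlaps ribosomal RNA, at 17.8% against a median of 13.4% over 24 samples, and this share had r 0.22 with the slow members. Its part in their levels was not tested.

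The 5 genes most like the mean of the 3 slow troponins over the 24 samples were Myh7 (r 0.91), Atp2a2 (0.80), Tpm3 (0.76), Onecut2 (0.62) and Pcdh17 (0.62). Myh7 encodes the myosin heavy chain of slow fibres, Atp2a2 the calcium pump of the slow sarcoplasmic reticulum, and Tpm3 the slow tropomyosin to which slow troponin T binds. Myh7 ranged from 3.57 to 20.2 CPM in air (median 11.7) and from 4.08 to 34.8 CPM in smoke (median 11.6), with smoke sample 1 the highest, and smoke sample 3 next at 32.2 CPM. Smoke sample 1 was also highest of its group for Atp2a2, at 42.4 CPM, and for Tpm3, at 64.8 CPM. Myh7 made up 0.00701% to 0.0457% of the reads of Myh1, Myh2, Myh4 and Myh7 in air and 0.00761% to 0.0724% in smoke. In bulk tissue, more slow fibres and more slow RNA per fibre cannot be told apart.

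Other genes commonly listed as slow did not all follow. Myl3, a slow light chain, had r 0.59, Mb (myoglobin) 0.31, Casq2 (a calcium store protein) 0.17 and Myl2, the slow regulatory light chain, 0.13. In smoke samples 1, 3 and 6 Myl2 stood at 86.7, 47.1 and 41.9 CPM, where the smoke median was 80.7 CPM. Among markers of other cell types, summed levels correlated with the slow troponins at r -0.37 for smooth muscle, 0.34 for endothelium, -0.22 for heart, -0.11 for tendon, -0.08 for blood, 0.06 for adipocytes and -0.01 for nerve. With the fast troponins the same sums had r from -0.51 for endothelium and -0.21 for smooth muscle to 0.16 for heart.

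For the fast troponins the 5 most alike genes were Serbp1 (r 0.92), Rps15 (0.91), Eef1d (0.90), Hint1 (0.89) and Eno3 (0.88). Eno3 is the muscle enolase of glycolysis, while Rps15 and Eef1d belong to the machinery of translation. Genes of the fast fibre list ranged widely in r with the fast troponins. Mylpf (fast regulatory light chain) was at 0.88, Myoz1 at 0.84, Myh4 (the myosin heavy chain of the fastest fibres) at 0.84 and Actn3 at 0.84. Lower values were found for others: Atp2a1 (the fast calcium pump) was at 0.25, Myl1 (a fast light chain) at -0.03, Casq1 at -0.07, and the myosin heavy chains Myh2 and Myh1 at -0.24 and -0.39.

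The upstream sequences of the 3 slow genes are shown because these genes varied together. RefSeq's table (GRCm38.p6) held 4 of the 6 genes, with 2 start sites for Tnni1, of which the upstream was used. The stretches of Tnni1 and Tnnt1 lie inside the longer gene spans of the GENCODE annotation, which has starts farther upstream. Each stretch ends at the RefSeq start site or short of an annotated exon before it. Capitals mark an E-box (CANNTG, the site of MyoD-type factors) or an MCAT match (CATTCC, read on the other strand as GGAATG).
Tnnc1: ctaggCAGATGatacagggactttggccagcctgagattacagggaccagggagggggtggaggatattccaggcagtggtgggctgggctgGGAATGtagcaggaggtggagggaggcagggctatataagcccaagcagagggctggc
Tnni1: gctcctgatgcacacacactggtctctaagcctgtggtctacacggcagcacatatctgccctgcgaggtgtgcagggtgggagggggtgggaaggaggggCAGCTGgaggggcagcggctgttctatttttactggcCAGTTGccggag
Tnnt1: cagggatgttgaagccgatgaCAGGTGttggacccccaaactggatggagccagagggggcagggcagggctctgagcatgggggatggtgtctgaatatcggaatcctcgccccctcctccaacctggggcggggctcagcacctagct
The stretches are chr14:31208162-31208311 (plus strand), chr1:135799252-135799401 (plus) and chr7:4516005-4516154 (minus), each of 150 bases. On both strands, an E-box was in all 3 and an MCAT match in that of Tnnc1. Of 32851 RefSeq windows of 150 bases directly before a start site, 47.7% held an E-box and 7.59% an MCAT match. The stretches of Tnni1 and Tnnt1 end 19 and 29 bases before the start. The E-box of Tnnt1, at bases 158 to 153 before its start, lies outside such a window. An E-box (CATCTG) was also in the stretch of the fast gene Tnnc2, which is 126 bases long. No exact match to TATAAA (7.57% of windows), the MEF2 motif (1.67%) or the CArG motif (0.916%) was in these stretches, and E-box and MCAT matches did not overlap. Near matches were not searched, and the stretch of Tnnc1 holds TATATAA, which the letters TATAAA do not match.

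In the annotation used here (GENCODE M21, GRCm38, while the submitters' processing notes name mm9), the troponin I and T genes lie near each other in pairs. Tnni2 (chromosome 7, 142441808 to 142444410, plus strand) lies before Tnnt3 (chromosome 7, 142498836 to 142516009, plus), with Lsp1 between them. Tnnt1 (chromosome 7, 4504570 to 4516382, minus) is next to the heart gene Tnni3, and Tnni1 (chromosome 1, 135779434 to 135810989, plus) is separated from the heart gene Tnnt2 by Lad1. Tnnc1 is on chromosome 14 (31208312 to 31211729, plus) and Tnnc2 on chromosome 2 (164777161 to 164779967, minus).

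Of the 2 heart genes beside the slow members, Tnni3 had 0 to 6 reads per sample in air and 0 to 3 in smoke, at or under a floor of 3 reads in 8 of 11 air and 13 of 13 smoke samples. Tnnt2 had 5 to 20 reads in air and 5 to 13 in smoke. Neither passed the expression filter.

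Tnnc1 lies wholly within Nisch on the opposite strand, and the last 500 bases of Tnnc2 share 471 bases with exons of Ube2c on the opposite strand. Whether strand was used in counting was not stated, so both are uncertain. Tnnt3 overlaps Prr33 on the opposite strand, but not in its last 500 bases. Ube2c itself had 0.254 ± 0.287 CPM (SD) in air and 0.471 ± 0.406 CPM (SD) in smoke. Nisch had 65.7 ± 7.63 CPM (SD) and 61.2 ± 4.85 CPM (SD), and no Nisch exon reaches into the last 500 bases of Tnnc1.

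Other genes of the thin filament were read from a list of 17 partners, of which 16 were tested. None was higher and 2 were lower under smoke, against 1.19% lower among all genes, and the median log2 fold change was -0.12, against 0.01 over all genes. Lmod2, a leiomodin that promotes growth of the thin filament, fell from 75.3 ± 23.6 to 52.9 ± 11.2 CPM (SD), a log2 fold change of -0.51 (edgeR SE 0.13, adjusted p = 0.0359), lower than the mean of air in all 13 smoke samples. Xirp1, an actin-binding Xin repeat protein, fell from 43.0 ± 13.1 to 26.4 ± 10.5 CPM (SD), a log2 fold change of -0.71 (edgeR SE 0.16, adjusted p = 0.0142), below in 12 of 13. Tropomyosins Tpm1, Tpm2 and Tpm3, the partners of troponin T, had edgeR log2 fold changes of -0.08, -0.12 and -0.00022 (adjusted p = 0.422, 0.303 and 1.00). Skeletal actin, Acta1, was at -0.04 (edgeR adjusted p = 0.821).

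Of 13 slow fibre genes outside the troponins, 10 were tested, none was higher and 2 were lower, against 1.19% lower among all genes, with a median log2 fold change of -0.23. Mb fell from 7163 ± 863 to 5594 ± 532 CPM (SD), a log2 fold change of -0.36 (edgeR SE 0.061, adjusted p = 0.00107), lower than the mean of air in all 13 smoke samples. Actn2, the Z-disc actinin present in all fibres, fell from 435 ± 28.8 to 373 ± 47.8 CPM (SD), a log2 fold change of -0.22 (edgeR SE 0.060, adjusted p = 0.0407), below in 11 of 13. Myh7, the gene most like the slow troponins, had a log2 fold change of 0.15 (edgeR SE 0.30, adjusted p = 0.875), and Atp2a2 one of -0.35 (edgeR SE 0.12, adjusted p = 0.145). Myl2 was at -0.46 (edgeR SE 0.14, adjusted p = 0.0784) and Myl3 at -0.29 (edgeR SE 0.10, adjusted p = 0.150). Over the 10 tested genes, 8 log2 fold changes were negative and 2 positive. All 13 fast fibre genes were tested and none was called, against 1.92% of all genes, a count near that background, with a median log2 fold change of 0.0025.

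**Figure D5:**
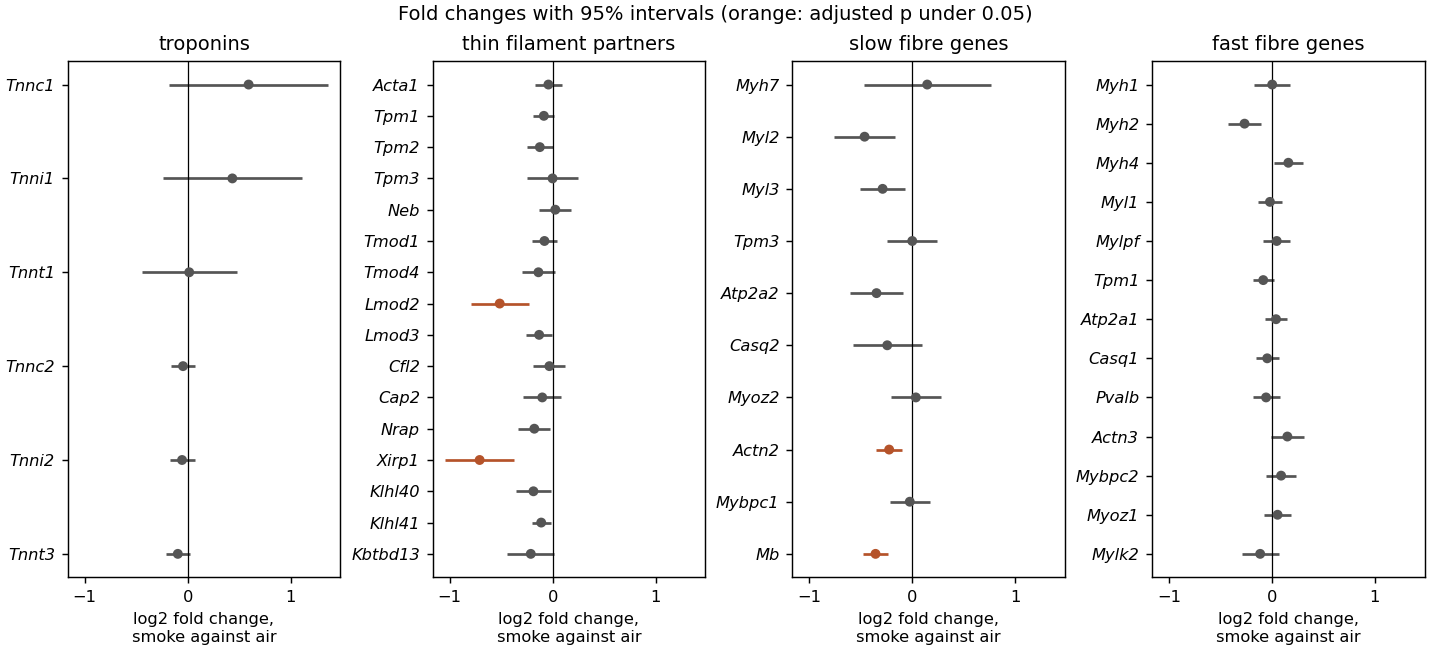
Log2 fold change, smoke against air (x axis), with 95% intervals, for the 6 troponins and the tested genes of 3 fixed lists; orange marks an edgeR adjusted p under 0.05. Troponin intervals all include 0 and are widest for Tnnc1, Tnni1 and Tnnt1, while Lmod2, Xirp1, Actn2 and Mb lie below 0.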

How the data were processed

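Plantaris RNA was made into QuantSeq 3′ FWD libraries (Lexogen) and read on a HiSeq instrument, per the labels' protocols. The table deposited by the authors holds unnormalised read counts, with Ensembl gene IDs in rows and samples in columns. The submitters' processing notes name STAR, DESeq2 and mm9 with no role, and the counting tool, annotation and use of strand are not given in the sources used here. Per the file headers, all samples came from lane 6, with sheet numbers 229 to 241 for smoke and 242 to 252 for air, so sheet position cannot be told apart from exposure. Titles gave the group and the replicate number. Symbols and coordinates came from GENCODE M21, which held 47224 of 47643 IDs (99.1%). No 2 samples agreed within sampling noise (chi-square per gene at least 2.51 over 133 pairs within groups).

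Counts were tested with edgeR 4.0.16 in R 4.3.3 (filterByExpr with a minimum count of 10, TMM, quasi-likelihood F-test, all 24 samples, no covariate). The 95% intervals of fold changes and of ratio differences use the residual degrees of freedom of the 2 groups. Log2 CPM values used a prior count of 2. Ratios and relations were tested two-sided with 100000 resamples. Alternatives were RLE and upper-quartile scaling, no expression filter, DESeq2 1.42.0, limma voom 3.58.1, the replicate number as a block, totals without the 10 most abundant genes, a prior count of 0.5, medians, shares in percent and leaving out each sample in turn.

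Members and lists were chosen with earlier results of these data known. All 6 members are given in full, from the lists every called gene, and the 5 genes most like the slow and the fast members. Tropomyosins, Acta1, Myh7, Atp2a2, the other genes named for their correlation, and the overlapping genes were named after their values were seen.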

Additional observations from a re-analysis of the deposited data

How the results depend on the processing

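No troponin gene was called under any of the 7 other fits or in any of the 24 fits that left out a sample (0 called in each). At an unadjusted p under 0.05, edgeR, DESeq2 and limma voom each had 0 of 6, and edgeR with no expression filter had 1, Tnnc1 (p = 0.0454). Tnnt3 had an unadjusted edgeR p of 0.0393 without air sample 1 and 0.0473 without air sample 10. Over all genes DESeq2 called 323 against 195, and the cause was not tested. The fit with the replicate block, over 22 samples without smoke samples 12 and 13, called 138. Leaving out 1 sample gave 141 to 254 over all genes.

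Tnnt1 changed sign, at -0.038 with limma voom and -0.046 with the replicate block, and lay between -0.18 and 0.11 when samples were left out. Tnnc2 then lay between -0.062 and 0.0017, Tnnc1 between 0.34 and 0.71, Tnni1 between 0.13 and 0.58 and Tnnt3 between -0.12 and -0.06. With limma voom Tnnc1 moved from 0.59 to 0.26 and Tnni1 from 0.43 to 0.26, and the cause was not tested. Differences of medians turned the slow to fast ratio of troponin C to -0.046, of troponin I to -0.021 and of troponin T to -0.057. With samples left out, the differences of mean ratios ranged from 0.15 to 0.43, 0.15 to 0.45 and -0.064 to 0.14, with permutation adjusted p of at least 0.528. A prior count of 0.5 moved troponin C with I in air to r 0.62 (permutation adjusted p = 0.0448), past the threshold.

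Replicate numbers are shared by both groups, but same-numbered samples did not deviate together (mean r -0.0059 over 11 pairs, 0.0011 over 132 other pairs, own number best for 2 of 11 air samples). With the replicate block, the ratio differences were 0.34, 0.36 and 0.03 (sign-flip permutation adjusted p = 0.580, 0.580 and 0.924).

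Tnnc1 and Tnni1 had few reads, down to 4 and 3 in a sample, and the largest SE of the 6 fold changes (edgeR 0.37 and 0.33).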

Other observations

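Onecut2 and Pcdh17, which ranked with Myh7, Atp2a2 and Tpm3 among the genes most like the slow troponins, were rare transcripts. Onecut2, a homeobox transcription factor, had 4 to 20 reads per sample in air and 8 to 24 in smoke, with a log2 fold change of 0.55 (edgeR SE 0.24, adjusted p = 0.241). Pcdh17, a protocadherin, had 1 to 14 reads in air and 2 to 22 in smoke, with a log2 fold change of 0.27 (edgeR SE 0.26, adjusted p = 0.680). Lmod3, a leiomodin of the thin filament, had r 0.53 with the slow troponins.

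Of 6 genes of developing or cardiac muscle, Myh3, Myh8 and Myl4 were tested and none was called, against 1.92% of all genes, a count near that background. Myh8, the perinatal myosin heavy chain, was at 0.46 on the log2 scale by edgeR (adjusted p = 0.155), and Myl4, an embryonic light chain, at -0.34 (edgeR adjusted p = 0.294).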
